A study of Mus musculus with 6 samples.

Results

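The genes described are 7 that act in cholesterol synthesis and its control, namely Srebf2, Insig1, Hmgcs1, Mvd, Fdft1, Sqle and Nsdhl, out of 22180 genes measured. They were chosen by symbol, as the array probes whose platform annotation names exactly 1 of these genes, and each of the 7 was read by 1 probe. Although uptake belongs to the same pathway, none of the 7 is an uptake gene, so receptors and transporters are described from separate lists. RNA came from EB3 mouse embryonic stem cells (mESC), a pluripotent line, and from epiblast-like cells (EpiLC) induced from them, which resemble the epiblast shortly after implantation. The 6 groups were EpiLC left untreated, EpiLC with CHIR99021 (CHIR), EpiLC with CHIR and PD0325901 (PD), and the same 3 treatments in mESC. CHIR inhibits the kinase GSK3 and PD inhibits MEK, the kinase upstream of ERK1/2. EpiLC had been cultured for 2 days in N2B27 with bFGF at 12 ng/ml and Activin A at 20 ng/ml, and mESC were grown in N2B27 with LIF and BMP4. CHIR was given at 3 µM and PD at 1 µM for 24 hours, and PD was never given without CHIR. All groups derive from 1 cell line, and each group was 1 array (Affymetrix Mouse Gene 2.0 ST), so there were no replicates and a difference between 2 arrays has no error and no p-value. Precision is limited throughout by how few arrays there are. The SEs, intervals and p-values below come from a fit of state plus treatment over the 6 arrays. They do not measure the spread between replicates.

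Cells make cholesterol from acetyl-CoA through mevalonate, farnesyl pyrophosphate, squalene and lanosterol. When sterols run low in the endoplasmic reticulum, the transcription factor SREBP2, the product of Srebf2, is released from its retention by INSIG proteins and switches on nearly all enzymes of the route together with receptors that take up lipoproteins. INSIG1 is itself a target of this factor, which closes a feedback loop. Early embryos need the pathway for membranes and for Hedgehog proteins, which carry cholesterol.

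Promoter sequence is shown for 4 of the 7 genes, since SREBP2 acts through short elements in promoters. The windows run from 250 bases before to 50 bases after the gene start and are credited to RefSeq (build GRCm38.p6, plus strand in all 4). They lie at chr13:119690101-119690400 for Hmgcs1, chr15:82147019-82147318 for Srebf2, chr5:28071162-28071461 for Insig1 and chrX:72918271-72918570 for Nsdhl. Capitals mark the core of the sterol regulatory element TCACNCCA, the NF-Y motif CCAAT and the Sp1 motif GGGCGG, each on either strand, with no overlap between motifs in these windows.
Hmgcs1: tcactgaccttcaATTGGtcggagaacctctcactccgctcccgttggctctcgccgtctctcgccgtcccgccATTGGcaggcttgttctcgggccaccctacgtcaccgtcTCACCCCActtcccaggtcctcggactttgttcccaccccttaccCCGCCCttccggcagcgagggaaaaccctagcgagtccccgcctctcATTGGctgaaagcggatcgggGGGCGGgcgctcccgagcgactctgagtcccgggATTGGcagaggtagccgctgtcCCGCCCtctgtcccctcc
Srebf2: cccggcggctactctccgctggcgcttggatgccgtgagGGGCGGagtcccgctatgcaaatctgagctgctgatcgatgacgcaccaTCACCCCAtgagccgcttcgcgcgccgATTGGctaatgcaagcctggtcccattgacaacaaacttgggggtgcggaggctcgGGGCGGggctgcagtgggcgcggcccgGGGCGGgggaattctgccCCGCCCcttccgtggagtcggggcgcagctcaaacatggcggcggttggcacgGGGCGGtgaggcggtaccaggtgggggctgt
Insig1: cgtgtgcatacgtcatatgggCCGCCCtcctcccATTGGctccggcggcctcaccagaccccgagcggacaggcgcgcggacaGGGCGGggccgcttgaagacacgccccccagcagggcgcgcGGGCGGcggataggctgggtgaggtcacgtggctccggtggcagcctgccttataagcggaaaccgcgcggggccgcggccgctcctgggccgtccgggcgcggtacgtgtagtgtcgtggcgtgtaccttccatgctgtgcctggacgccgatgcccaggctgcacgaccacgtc
Nsdhl: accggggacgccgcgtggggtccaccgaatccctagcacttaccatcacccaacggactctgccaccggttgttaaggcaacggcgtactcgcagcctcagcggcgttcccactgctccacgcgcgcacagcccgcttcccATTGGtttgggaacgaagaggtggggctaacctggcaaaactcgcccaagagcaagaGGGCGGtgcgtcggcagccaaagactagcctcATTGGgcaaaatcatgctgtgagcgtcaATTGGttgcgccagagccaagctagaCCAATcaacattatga
A window was found for 5 of the 7 genes, the fifth being Mvd. TCACNCCA stood in 2 of the 5, starting 137 bases before the gene start in Hmgcs1 and 162 bases before it in Srebf2, and it was found in 4.36% of 32851 promoter windows of this length. CCAAT and GGGCGG stood in all 5, against 37.4% and 35.7% of the windows. A match of letters is a description and not a measured site.

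The labels were checked against marker genes of each state. Summed over 8 naive markers, intensity lay between 534 and 934 on the EpiLC arrays and between 7779.9 and 10035 on the mESC arrays. Summed over 7 formative markers it lay between 2363 and 9133 in EpiLC and between 1298 and 3553 in mESC, and the lowest EpiLC value, with CHIR and PD, was under that of untreated mESC. Between those 2 arrays, Dnmt3b (788 against 2327) and Otx2 (59.0 against 410) were lower in EpiLC. Wnt8a (525 against 73.0) and Zic2 (659 against 466) were higher in EpiLC. Pou3f1 (145 against 122) and Sall2 (147 against 120) were slightly higher in EpiLC. Fgf5 was nearly level at 39.4 against 36.0, whereas it was at 1258.5 in untreated EpiLC. The median of the 7 markers was 147 against 122. The sum of 7 mesoderm markers was 15155 in EpiLC with CHIR and between 439 and 922 on the other 5 arrays. Sums of 11 primitive and visceral endoderm markers were 1739 on that array and between 874 and 970.4 on the others. Gata6 was at 619 there and between 67.8 and 85.9 on the others, and Gata4, Sox17, Foxa2 and Afp were also highest there. Sox7, Ttr, Apoa1, Apob, Amn and Cubn were not. The 8 fibroblast markers summed to between 705 and 1495 in EpiLC and between 601 and 800.3 in mESC. Intensities are linear array values with a lowest value of 16, and no marker was at 0 because the table holds no value under 16. In bulk RNA, fewer cells of a type and less RNA per cell cannot be told apart.

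The 7 genes were bright on every array, and the widest range among them was 1.61-fold. Shares of all genes in this report include many dim genes, as 12685 of the 22180 had a mean log2 of at least 6. They were not matched to the 7 for intensity. The ratio of the highest to the lowest of the 6 arrays was 1.61 for Nsdhl, 1.56 for Hmgcs1 and 1.39 for Insig1, and between 1.25 and 1.29 for the other four. Of all genes, 28.4% had a wider range over the arrays than Nsdhl, 31.5% than Hmgcs1 and 51.7% than Insig1. For the other genes this share lay between 70.0% (Fdft1) and 78.9% (Mvd). In 6 of the 7 genes the highest array was EpiLC with CHIR and PD, which was the highest array for 17.9% of all genes. Insig1 was the exception, with its highest value in untreated mESC. The mean log2 intensity of the 7 was 10.30, 10.30 and 10.55 in untreated, CHIR-treated and CHIR- and PD-treated EpiLC, against 10.33, 10.19 and 10.23 in the same order of mESC.

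**Figure D1:**
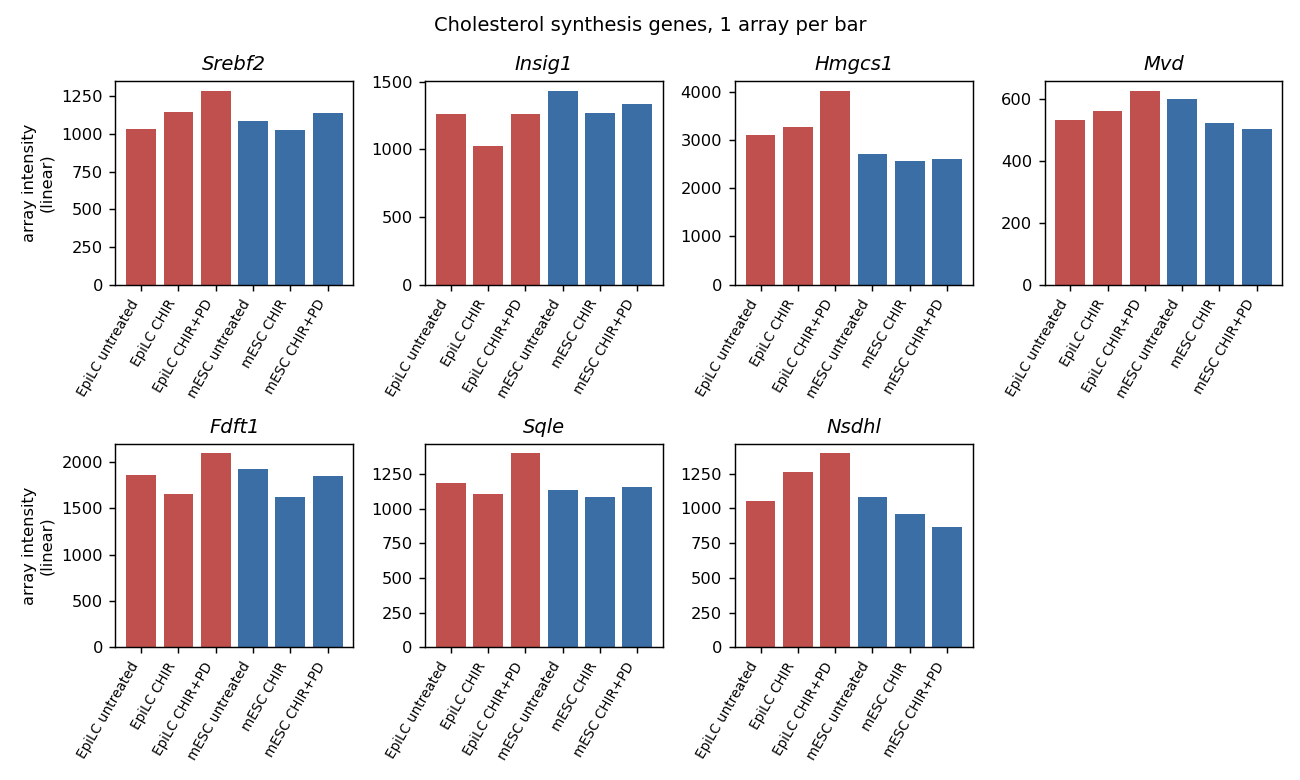
Linear array intensity of the 7 genes in EpiLC (red) and mESC (blue), 1 bar for each of the 6 arrays, with no error bars because each group was 1 array. EpiLC with CHIR and PD is the highest bar for 6 genes, and Insig1 is highest in untreated mESC at 1432.

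Among the regulators, Srebf2, which encodes the SREBP2 precursor, was at an intensity of 1032 in untreated, 1144 in CHIR-treated and 1286 in CHIR- and PD-treated EpiLC, against 1085, 1026 and 1136 in mESC under the same treatments. Among EpiLC arrays the value was higher with each added inhibitor, and the 2 states overlapped. Over the 3 treatments the log2 difference of EpiLC against mESC was 0.09 (SE 0.11, limma adjusted p = 0.684). Insig1, which encodes the protein that retains the precursor, was at 1258, 1027 and 1258 in untreated, CHIR- and CHIR- and PD-treated EpiLC, against 1432, 1265 and 1333 in mESC. All EpiLC values lay under all mESC values, if narrowly at the nearest pair (1258 in EpiLC and 1265 in mESC), and in both states the array with CHIR alone was the lowest. Its difference of -0.19 (SE 0.10, limma adjusted p = 0.342) did not pass the threshold.

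Of the enzymes of the mevalonate part, Hmgcs1, which makes HMG-CoA, was at 3115, 3272 and 4026 in untreated, CHIR- and CHIR- and PD-treated EpiLC, against 2702, 2574 and 2599 in mESC. The 3 EpiLC arrays all lay above the 3 mESC arrays, and the distance was widest with both inhibitors. The fitted log2 difference was 0.39 (SE 0.12, 95% interval 0.09 to 0.70), with an unadjusted p of 0.0196 and a limma adjusted p of 0.121 over all genes. It passed under 1 alternative, limma with trend and robust moderation (adjusted p = 0.0497). Over all alternatives its adjusted p lay between 0.0497 and 0.365 and its difference between 0.28 and 0.49. Mvd, the decarboxylase that closes the mevalonate steps, was at 531, 562 and 627 in EpiLC in the same order, against 599.5, 523 and 502 in mESC. It was lower in EpiLC without inhibitors and higher in EpiLC with either treatment, and the states overlapped.

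Squalene is made by the product of Fdft1 and oxidised by that of Sqle, a rate-limiting enzyme of the route. Fdft1 was at 1859, 1651 and 2093 in untreated, CHIR- and CHIR- and PD-treated EpiLC, against 1925, 1619 and 1853 in mESC. Sqle was at 1184, 1104 and 1398 in EpiLC, against 1138, 1083 and 1154 in mESC. Both genes were lowest with CHIR alone in each state, and both differed between the states by little, with fitted log2 differences of 0.05 (SE 0.11) for Fdft1 and 0.12 (SE 0.11) for Sqle.

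Nsdhl encodes the dehydrogenase that helps remove methyl groups from carbon 4 of the sterol ring after lanosterol. It was at 1054, 1263 and 1394 in untreated, CHIR- and CHIR- and PD-treated EpiLC, against 1084, 957 and 868 in mESC. The untreated states were nearly equal, the EpiLC arrays with inhibitors were higher than untreated EpiLC, and the mESC arrays with inhibitors were lower than untreated mESC. With CHIR and PD in both states the log2 difference of EpiLC against mESC was 0.68, and 13.0% of all genes were at least as far apart. Over the 3 treatments it was 0.35 (SE 0.16, limma adjusted p = 0.261).

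Between the states, 0 of the 7 genes passed the limma threshold of 0.05 in the fit of state and treatment over 6 arrays, where 8.3% of all genes did, and 1 of the 7 (Hmgcs1) had an unadjusted p under 0.05, against 24% of all genes. Of the 7, 6 had a positive fitted difference (46.2% of all genes did), with a median of 0.09 for the 7 and -0.02 for all genes. The 3 arrays of each state did not overlap for 2 of the 7, Hmgcs1 and Insig1, against 26.8% of all genes (12.4% higher and 14.4% lower in EpiLC). The median log2 difference of the 7 was -0.05 in the untreated pair, 0.10 with CHIR and 0.28 with CHIR and PD, against 0.00, -0.02 and -0.03 for all genes. Higher in EpiLC were 2 of the 7 in the untreated pair (50.4% of all genes), 6 with CHIR (46.6%) and 6 with CHIR and PD (46%). At least 1.5-fold apart were 0 of 7 in the untreated pair (background 9.64%), 0 with CHIR (13.2%) and 2 with CHIR and PD (17.2%), the last being Nsdhl at 1.61-fold and Hmgcs1 at 1.55-fold.

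**Figure D2:**
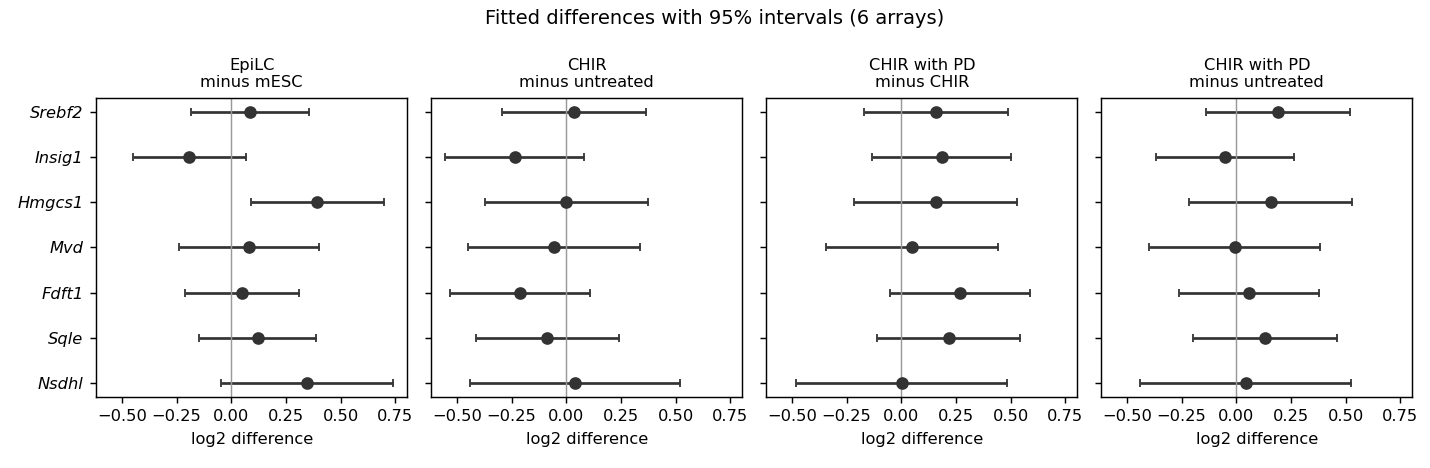
Fitted log2 difference of each of the 7 genes in the 4 comparisons, with 95% intervals from limma over 6 arrays. The intervals rest on departures from additivity of state and treatment and do not measure the spread between replicates. The vertical line is at 0. The Hmgcs1 interval for EpiLC against mESC, 0.09 to 0.70, is the 1 interval that leaves out 0.

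With CHIR alone, all 7 genes were lower in mESC with CHIR than in untreated mESC, against 50.5% of all genes, with a median of -0.18 and a range that ended at -0.25 for Fdft1. In EpiLC 4 were higher, against 45% of all genes, and 3 lower (median 0.07), with Nsdhl at 0.26 and Insig1 at -0.29. None of the 7 was 1.5-fold apart in either state, where 2.43% of genes were in mESC and 8.76% in EpiLC. Over both states 0 of 7 passed the limma threshold, as did 0% of all genes, and 0 had an unadjusted p under 0.05 (7.27% of all genes). Of the 7 fitted differences, 4 were negative, against 54.2% of all genes. The fitted differences lay between -0.24 for Insig1 (SE 0.13, 95% interval -0.55 to 0.08) and 0.04 for Nsdhl (SE 0.19, 95% interval -0.44 to 0.52). The EpiLC array with CHIR is the one with the high mesoderm sum given above, whose part in these values was not tested.

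With PD added to CHIR, all 7 genes were higher in EpiLC than with CHIR alone, where 47.5% of all genes were higher. These 2 arrays also differed in the mesoderm sum, which was 15155 with CHIR alone and 914 with PD added. The part of those markers in these values was not tested. The log2 differences lay between 0.14 for Nsdhl and 0.34 for Fdft1 and Sqle (median 0.29, all genes -0.02), and none reached 1.5-fold (background 6.18%). In mESC 5 were higher, against 48% of all genes, and 2 lower (median 0.08), with Fdft1 at 0.19 and Nsdhl at -0.14, and none reached 1.5-fold (background 3.89%). In the fit over both states, all 7 differences were above 0, against 46.7% of all genes. Of these, Nsdhl was level at 0.00 (SE 0.19) and Mvd was at 0.05 (SE 0.16), and for both the 2 states had opposite signs. Of the 7 genes, 0 passed the limma threshold, against 0.018% of all genes. None had an unadjusted p under 0.05 (5.77% of all genes). Fdft1 had the largest, 0.27 (SE 0.13, limma adjusted p = 0.846).

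Set against untreated cells, 6 of the 7 genes were higher in EpiLC with both inhibitors (44% of all genes), with Nsdhl at 0.40, Hmgcs1 at 0.37 and Srebf2 at 0.32, and Insig1 was level at 0.00. In mESC 5 of the 7 were lower and 2 higher, against 48.6% of all genes that were higher, with Nsdhl at -0.32 and Mvd at -0.26. None was 1.5-fold apart in either state (backgrounds 13.2% in EpiLC and 6.97% in mESC). These comparisons share the untreated arrays with those of CHIR alone and the arrays with both inhibitors with those of added PD. In the fit 0 of 7 passed the limma threshold (0.0271% of all genes) and 0 had an unadjusted p under 0.05 (14.3% of all genes). Of the 7 fitted differences 5 were positive (43.8% of all genes), and Srebf2 was highest at 0.19 (SE 0.13, 95% interval -0.14 to 0.52).

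Over the 6 arrays the 7 genes mostly varied together, as a description of log2 values that share arrays and with no test. Pearson correlations of the 21 pairs ranged from -0.46 (Insig1 with Nsdhl) to 0.91 (Hmgcs1 with Nsdhl), with a median of 0.60 and 3 pairs under 0, each of which held Insig1. Profiles were screened for 2799 genes outside the 7 with a range of at least 1 on the log2 scale. Symbols such as those of predicted genes, clones, small RNAs, olfactory receptors and pseudogenes were passed over. The 6 whose profiles over the 6 arrays were most like the mean of the 7 were Map7d1 (r = 0.99), Tead3 (0.98), Eno3 (0.97), Paqr4 (0.97), Rbm24 (0.97) and Erbb3 (0.96). All 6 had their highest intensity in EpiLC with CHIR and PD, as with Eno3, a muscle-type enolase gene, at 371, 364 and 1374 in untreated, CHIR- and CHIR- and PD-treated EpiLC, against 365, 273 and 255 in mESC. The mean of the 7 is highest on that array and the 6 were picked for likeness to it, so the shared highest array follows from the choice. With 6 arrays and 2799 genes screened, a high r can arise without any relation, and none was tested.

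Among the other enzymes of the route, the median log2 difference of EpiLC against mESC was 0.02 in the untreated pair, 0.32 with CHIR and 0.43 with CHIR and PD. Of 21 enzymes listed, 17 were measured, 12 of them outside the 7 genes, and the others were not analysed here. Cyp51, the lanosterol demethylase, was at 826, 983 and 1374 in untreated, CHIR- and CHIR- and PD-treated EpiLC, against 642, 576 and 590.0 in mESC. Hsd17b7, a ketoreductase that works beside the Nsdhl product, was at 248, 400.2 and 463 in EpiLC, against 206, 210.5 and 213 in mESC. For both genes all EpiLC arrays lay above all mESC arrays and the distance was wider with inhibitors than without. Pmvk, a kinase of the mevalonate steps, was at 529, 554 and 741 in EpiLC, against 447, 368 and 432 in mESC, again with no overlap. Of all genes, 12.4% lay wholly higher in EpiLC in this way. Ebp, a sterol isomerase, was at 226 in EpiLC and 434 in mESC in the untreated pair, and at 443 in EpiLC and 387 in mESC with both inhibitors.

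Of the 12 other enzymes, 0 passed the limma threshold between the states (8.3% of all genes did) and 4 had an unadjusted p under 0.05 (24% of all genes). A positive difference was found for 11 (46.2% of all genes), with a median of 0.28 for the 12 and -0.02 for all genes. The differences were 0.78 for Cyp51 (SE 0.18, limma adjusted p = 0.0548), 0.77 for Hsd17b7 (SE 0.18, limma adjusted p = 0.0615) and 0.54 for Pmvk (SE 0.13, limma adjusted p = 0.0717). With trend and robust moderation 4 of the 12 passed, Cyp51 (adjusted p = 0.0335), Hsd17b7 (adjusted p = 0.0423), Pmvk (adjusted p = 0.0459) and Sc5d, a sterol desaturase (adjusted p = 0.049). Without either untreated array the difference was 1.00 for Cyp51 (adjusted p = 0.0469) and 1.03 for Hsd17b7 (adjusted p = 0.0287). Cyp51 also passed with arrays centred on their median (adjusted p = 0.0447) and without dim genes (adjusted p = 0.0486). Sc5d also passed with all intensities shifted so that the lowest was 64 (adjusted p = 0.0387). With CHIR 3 of the 12 were at least 1.5-fold higher in EpiLC (background 6.73%). With CHIR and PD 5 of the 12 were at least 1.5-fold higher in EpiLC (background for higher genes 8.86%), against 0 in the untreated pair (4.54%), where Ebp was at least 1.5-fold lower (5.1%).

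The treatments gave the 12 other enzymes values on both sides of 0. With CHIR, 4 were higher and 8 lower in mESC (median -0.18), where 50.5% of all genes were lower. In EpiLC 9 were higher and 3 lower (median 0.11), where 45% of all genes were higher, and 2 of the 12 were at least 1.5-fold apart (8.76% of all genes), Hsd17b7 at 0.69 and Ebp at 0.66. With PD added to CHIR, 11 were higher and 1 lower in EpiLC (median 0.24), where 47.5% of all genes were higher, and 0 of the 12 were 1.5-fold apart (6.18%). In mESC 8 were higher and 4 lower (median 0.03), where 48% of all genes were higher. In mESC 0 of the 12 were 1.5-fold apart with CHIR (2.43% of all genes) or with PD added (3.89%). Both comparisons in EpiLC share the array with CHIR, which had the high mesoderm sum, and the part of those markers was not tested.

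**Figure D3:**
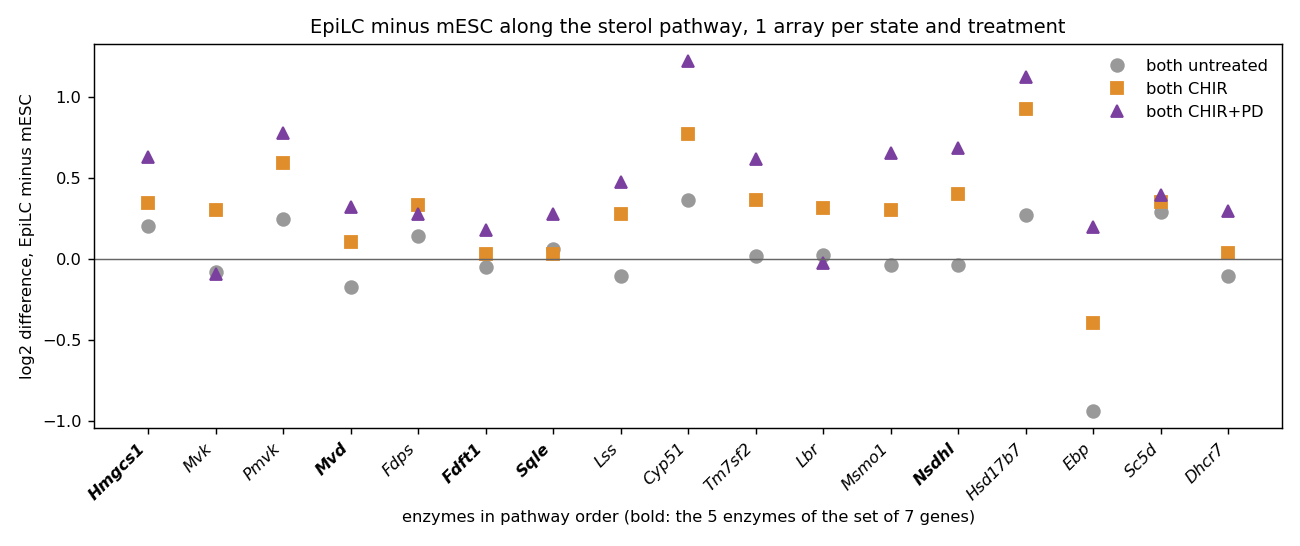
Log2 difference of EpiLC minus mESC for the 17 measured sterol enzymes in pathway order, with 1 point per treatment (grey untreated, orange CHIR, purple CHIR with PD) and no error because each point is 1 array against 1 array. Cyp51 reaches 1.22 and Hsd17b7 1.12 with both inhibitors, and Ebp lies at -0.94 in the untreated pair.

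Of 11 uptake and trafficking genes 9 were measured, and 3 of the 9 rose in EpiLC over the 3 treatments in limma, where 4.15% of all genes rose (median 0.34 for the 9, -0.02 for all genes). Lrp8, which encodes the lipoprotein and Reelin receptor ApoER2, was at 469, 914 and 658 in untreated, CHIR- and CHIR- and PD-treated EpiLC, against 262, 420.0 and 231 in mESC. Its log2 level rose by 1.16 in EpiLC (SE 0.15, limma adjusted p = 0.0122) and was highest with CHIR alone in both states. The very-low-density lipoprotein receptor gene Vldlr was at 93.4, 306 and 177 in EpiLC, against 52.6, 76.2 and 72.4 in mESC, and it rose by 1.38 (SE 0.23, limma adjusted p = 0.023). With all intensities shifted so that the lowest was 64 instead of 16, that difference was 0.97 and did not pass (adjusted p = 0.0622). Both receptors were highest on the EpiLC array with the high mesoderm sum, and the part of those markers was not tested. Without that array the differences were 1.18 for Lrp8 (adjusted p = 0.0297) and 1.06 for Vldlr (adjusted p = 0.0297).

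Lipa, the lysosomal lipase that frees cholesterol from lipoprotein esters, was at 187, 276 and 319 in untreated, CHIR- and CHIR- and PD-treated EpiLC, against 113, 136 and 133 in mESC. It rose by 1.00 (SE 0.13, limma adjusted p = 0.0131), with all EpiLC arrays above all mESC arrays (12.4% of all genes). Npc2, which binds the freed cholesterol in the lysosome, differed between treated and untreated arrays in both states. It was at 390.1, 873 and 866 in EpiLC, against 526, 902 and 1140.1 in mESC, so that in each state both treated arrays were above the untreated one. Its fitted log2 difference was 0.97 for CHIR against untreated (SE 0.15, limma adjusted p = 0.493). For both inhibitors against untreated it was 1.13 (SE 0.15, limma adjusted p = 0.112), so neither passed. PD added to CHIR gave -0.01 in EpiLC and 0.34 in mESC.

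Of 8 genes of efflux and esterification 5 were measured, and 2 of the 5 fell in limma, where 4.15% of all genes fell (median -0.30 for the 5). Apoe, the apolipoprotein that carries cholesterol out of cells, was at 383, 455 and 622 in untreated, CHIR- and CHIR- and PD-treated EpiLC, against 995, 1506 and 1532 in mESC, and fell by 1.47 (SE 0.12, limma adjusted p = 0.0045). Abca1, the transporter that loads it, was at 62.8, 55.7 and 66.4 in EpiLC, against 151, 151 and 134 in mESC, and fell by 1.24 (SE 0.12, limma adjusted p = 0.00578). Neither gene overlapped between the states, and 14.4% of all genes lay wholly lower in EpiLC in this way. The related transporter gene Abcg1 was at 174, 95.8 and 86.7 in EpiLC, against 135, 128 and 155 in mESC, so it was lower in both inhibitor-treated EpiLC arrays than in untreated EpiLC.

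**Figure D4:**
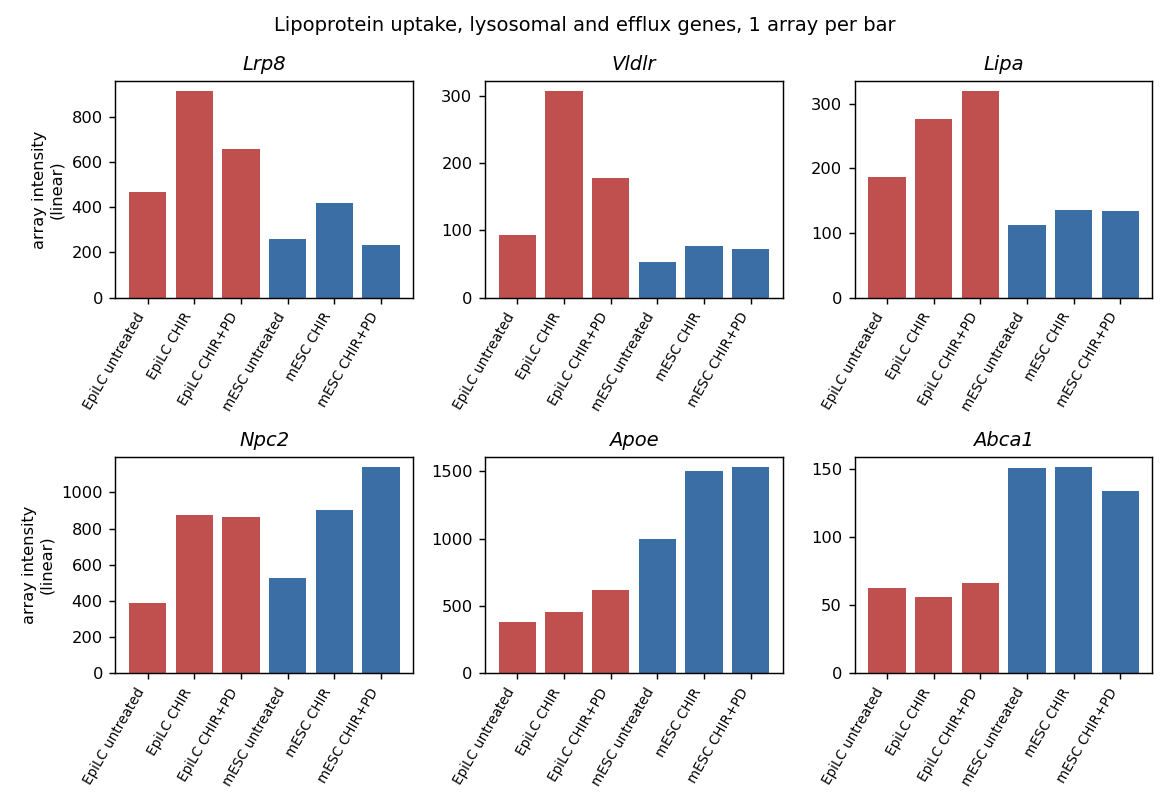
Linear array intensity of 6 genes of lipoprotein uptake (Lrp8, Vldlr), lysosomal release (Lipa, Npc2) and efflux (Apoe, Abca1) in EpiLC (red) and mESC (blue), 1 bar per array and no error bars. The states do not overlap for Lrp8, Vldlr, Lipa, Apoe and Abca1, which all passed the limma threshold between the states. Of all genes, 26.8% did not overlap. Npc2 is lowest in the untreated cells of each state.

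Of the genes that control SREBP processing, 10 of 12 were measured and 8 lay outside the 7. In limma 1 of the 8 rose in EpiLC, where 4.15% of all genes rose. It was Rnf145, a ubiquitin ligase of the endoplasmic reticulum, at 283, 243 and 206 in untreated, CHIR- and CHIR- and PD-treated EpiLC, against 201, 187 and 139 in mESC. Its rise of 0.48 (SE 0.10, limma adjusted p = 0.0483) did not pass with all intensities shifted so that the lowest was 4 (adjusted p = 0.0943). Nor did it pass with quantile normalization (adjusted p = 0.0556) or without any 1 array, as its adjusted p was then between 0.122 and 0.178. Srebf1, which encodes the fatty acid branch factor, was at 272, 316 and 334 in EpiLC, against 218, 234 and 246 in mESC. The states did not overlap (12.4% of all genes lay wholly higher in EpiLC), and the difference was 0.40 (SE 0.10, limma adjusted p = 0.0737). Srebf1 passed with all intensities shifted so that the lowest was 64, at a difference of 0.34 (adjusted p = 0.039).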

How the data were processed

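Total RNA of 6 cultures was labelled with the WT PLUS kit and hybridised to Mouse Gene 2.0 ST arrays, and analysed in GeneSpring GX 11.5, per the series' design text. The deposited values are linear intensities; how the authors normalized them is not given in the sources used here. Array medians lay between 60.5 and 65.2. No raw arrays were used, and no genome build of the table is given.

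Of 33793 probes, 23521 carried 1 gene symbol, 1814 several and 8458 none. Log2 intensities of probes with 1 symbol were averaged per gene, giving 22180 genes, with no filter. In R 4.3.3, limma 3.58.1 (lmFit, eBayes) fitted state plus treatment, without interaction, to the 6 arrays. Its 2 residual degrees of freedom are departures from additivity, so p-values do not measure the spread between replicates. P-values were two-sided and adjusted by Benjamini-Hochberg across the 22180 genes, with a threshold of 0.05. The 9 comparisons of 1 array with 1 array give sizes only, counted at 1.5-fold.

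The 7 genes and 6 pathway lists were chosen with earlier results of these data known. Named genes were the 7, list genes past the threshold, up to 4 per list with the largest difference in a pair of arrays, and 6 by likeness of profile. Motifs were searched on both strands of RefSeq windows matched by symbol. The fit was tested on simulated data. Figures were drawn with matplotlib 3.10.9. Alternatives were 2 other constants, quantile normalization, median centring, the brightest probe, a filter at a mean log2 of 6, other moderation and leaving out each array. For the constants, all intensities were shifted so that the lowest was 4 or 64 in place of 16.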

Additional observations from a re-analysis of the deposited data

Results flagged for a closer look

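Several responses had opposite signs in the 2 states, each from 1 array against 1 array per state, and the difference between states was not tested. For CHIR against untreated this held for 4 of the 7 genes (42.5% of all genes), with the EpiLC response exceeding the mESC response on the log2 scale by 0.14 for Hmgcs1, 0.28 for Mvd, 0.44 for Nsdhl and 0.23 for Srebf2. For CHIR with PD against CHIR it held for 2 of the 7 (45.6% of all genes), by 0.22 for Mvd and 0.28 for Nsdhl. For CHIR with PD against untreated it held for 5 of the 7 (42.7% of all genes), by 0.43 for Hmgcs1, 0.10 for Insig1, 0.23 for Fdft1, 0.50 for Mvd and 0.72 for Nsdhl. Insig1 was at 0.00 in EpiLC, level with untreated EpiLC, so 4 of the 7 remain when it is not counted. The 3 contrasts share arrays.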

How the results depend on the processing

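Of the 7 genes, 0 passed the threshold in each of the 4 fitted comparisons under the alternatives tried, except that trend and robust moderation gave 1 for EpiLC against mESC (Hmgcs1). Leaving out 1 array gave 0 members in all 4 comparisons. In the 9 pairs of arrays, the median of the 7 kept its sign under every constant, scaling and probe rule tried and moved by at most 0.08 (log2), which is as large as several of these medians. With quantile normalization it was 0.03 in place of 0.07 for CHIR in EpiLC, 0.03 in place of 0.08 for PD added in mESC and -0.14 in place of -0.06 for both inhibitors in mESC. With median centring it was -0.02 for both inhibitors in mESC, and -0.03 in place of -0.05 for EpiLC against mESC untreated. The count of all genes called, which sets the background, was 1841 for EpiLC against mESC, 1016 with a constant of 4, 0 without moderation and between 945 and 1276 without 1 array (945 without either array with CHIR). For CHIR it was 0 and up to 52 without the mESC array with CHIR. For PD added to CHIR it was 4, 1 with a constant of 64, 7 with trend and robust moderation, 0 without moderation, 54 without the mESC array with CHIR and 71 without the mESC array with both inhibitors. For CHIR with PD it was 6, 1 with either constant, 53 with trend and robust moderation, 0 without moderation, 0 without either untreated array, 48 without either array with CHIR and 152 without the mESC array with both inhibitors. The cause was not tested. The fits without 1 array have 1 residual degree of freedom, and leaving out either array of a treatment gives the same state difference. Without moderation no gene passed between the states, so all 10 calls among the list genes were lost. No paired analysis was possible because the groups hold 1 array each and the labels carry no replicate numbers, beyond the 3 pairs of EpiLC and mESC arrays matched by treatment, which the fit of state plus treatment already compares within treatment.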

Other observations

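Fatty acid genes, which the related factor SREBP1 controls, moved in part with the cell state. Of 12 listed, 10 were measured and 2 rose in EpiLC over the 3 treatments in limma (4.15% of all genes rose), both desaturases of polyunsaturated fatty acids. Fads2 was at 1953, 1969 and 2517 in untreated, CHIR- and CHIR- and PD-treated EpiLC, against 1163, 1065 and 1134 in mESC, and rose by 0.93 (SE 0.12, limma adjusted p = 0.012). Fads1 was at 1065, 1796 and 1931 in EpiLC, against 746, 1053 and 1109 in mESC, and rose by 0.69 (SE 0.11, limma adjusted p = 0.0218). Fads1 was higher in both treated arrays than in the untreated one in each state, and its call was lost with a constant of 4 (adjusted p = 0.0563) without an array with CHIR (adjusted p = 0.112) and without an array with both inhibitors (adjusted p = 0.0629). The median of the 10 genes was 0.04.

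Of 10 genes at the branches from farnesyl pyrophosphate to prenylation, dolichol and ubiquinone, 9 were measured, and in limma 1 rose and 1 fell in EpiLC, where 4.15% of all genes rose and 4.15% fell. Ggps1, which makes geranylgeranyl pyrophosphate, was at 334, 325 and 329.8 in untreated, CHIR- and CHIR- and PD-treated EpiLC, against 243, 234 and 216 in mESC, and rose by 0.51 (SE 0.10, limma adjusted p = 0.0383). Fntb, the beta subunit of the farnesyltransferase, was at 180.2, 153 and 161 in EpiLC, against 304, 235 and 215 in mESC, and fell by 0.60 (SE 0.11, limma adjusted p = 0.0333). Both calls were lost with a constant of 4 (adjusted p = 0.0822 for Ggps1 and 0.0702 for Fntb). Without any 1 array the adjusted p of Ggps1 lay between 0.0907 and 0.181. That of Fntb was 0.103 without an untreated array and 0.158 without an array with CHIR.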
